A study of Homo sapiens with 14 samples.

Results

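TCONS probes are array probes for human long intergenic noncoding RNA (lincRNA) candidates that were assembled from RNA sequencing reads and carry a catalogue number in place of a gene name. All non-control probes whose systematic name begins with TCONS_ were taken, which gave 7177 of 50599 probes (14.2%). Of these, 5642 carried a plain number and 1535 the additional mark l2, which the catalogue uses for transcripts of uncertain coding potential. The TCONS probes stood for 7054 different transcripts, and 6945 of these had a single probe. The 25436 probes whose name begins with NM_, which match curated mRNAs of RefSeq, served for comparison.

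The arrays held RNA of the glioblastoma cell lines A172 and U87-MG (U87 in the labels), taken, per the labels, 40 h after electroporation with 20 pmol/ml siRNA (the sources differ on this time, and that of the labels is given). In each line a negative control siRNA, of medium GC content and with no target, was set against siLINC00152, an siRNA directed at exon 1 of LINC00152. A172 was represented by 3 arrays in each group and U87-MG by 4, 14 in total. The labels number the replicates, and the paper describes them as biological and independent. Samples of 1 replicate number formed a control and siLINC00152 pair. Each A172 pair lay on a slide of its own, whereas all 8 arrays of U87-MG shared 1 slide, so that cell line and slide cannot be told apart. The number of arrays limits the precision of all values given here.

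LincRNAs are transcribed by RNA polymerase II from loci between protein-coding genes, and many of them are present at lower levels and in fewer cell types than mRNAs. Most candidates of assembled catalogues have no known function, and for that reason the TCONS transcripts are described here by their signal and not by a role. LINC00152, also called CYTOR, is a cytoplasmic and nuclear lncRNA that is raised in several tumours, and the MIR4435 host gene is its close paralog.

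The study lists a pair of siRNAs against LINC00152, both 25 bases long and both directed at exon 1. The labels do not say which of them was used for the arrays, so both are shown, because every change described here was measured after one of them. The paper names siLINC00152 #1 for its qPCR check of the knockdown in both lines, and names no siRNA for the arrays themselves.
siLINC00152 #1: tgcctgtcttcagatcttcacagca
siLINC00152 #2: agtttcaaattgacattccagacaa

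Of the 7054 TCONS transcripts, 14 could be matched through a RefSeq synonym to a named gene, each of them a lncRNA. The probes of 3 of these genes reached the detection limit described further down, namely LINC-ADAIN (TCONS_00015639), IATPR (TCONS_00018476) and LINC01152 (TCONS_00025128). The remaining 11, among them THRIL, MICB-DT and COL1A2-AS1, did not. The promoters of LINC-ADAIN and IATPR are shown as the sequence context of TCONS members that were detected in these cells, from 250 bases before to 50 bases after the start of the gene in RefSeq on GRCh38.p14. LINC-ADAIN is at chr9:1047893-1048192 on the plus strand, and IATPR at chr10:33116758-33117057 on the minus strand, with a CCAAT box in capitals.
LINC-ADAIN: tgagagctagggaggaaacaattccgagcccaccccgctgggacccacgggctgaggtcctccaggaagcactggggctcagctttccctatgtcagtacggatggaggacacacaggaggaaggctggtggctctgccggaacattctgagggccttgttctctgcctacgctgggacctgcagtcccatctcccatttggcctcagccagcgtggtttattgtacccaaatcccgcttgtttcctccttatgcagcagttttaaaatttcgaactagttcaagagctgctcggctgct
IATPR: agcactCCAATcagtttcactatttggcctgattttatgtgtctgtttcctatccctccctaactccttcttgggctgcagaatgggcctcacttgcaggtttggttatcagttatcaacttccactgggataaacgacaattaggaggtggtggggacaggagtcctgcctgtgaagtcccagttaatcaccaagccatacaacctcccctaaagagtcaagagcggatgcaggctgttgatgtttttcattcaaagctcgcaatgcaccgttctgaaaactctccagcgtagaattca

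The LINC-ADAIN window held 10 CG dinucleotides at 56% GC, and the IATPR window held 5 at 47% GC. Over all 35116 promoters of the table the medians were 14 CG dinucleotides and 58.7% GC. The TATA box (TATAAA, searched on both strands) was in neither window and in 4049 of all promoters. The CCAAT box (CCAAT, both strands) was present 1 time in the IATPR window and in 34.6% of all promoters. These matches describe the letters of the windows only.

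Signals are given as log2 of the processed intensity relative to the 75th percentile of all non-control spots of the same array, so that 0 stands for that percentile. On this scale the LINC00152 probe (NR_024204) in A172 was at 2.63, 2.44 and 2.48 in the controls and at 0.23, -0.42 and -0.10 after siLINC00152. In U87-MG it was at 1.94, 1.83, 1.71 and 1.82 in the controls and at -1.21, -0.88, -0.74 and -0.79 after siLINC00152. All knockdown arrays were below all control arrays in both lines. The LINC00152 probe fell by 2.61 in A172 (SE 0.239, n = 3, limma adjusted p = 0.000731) and by 2.73 in U87-MG (SE 0.207, n = 4, limma adjusted p = 4.96e-05). The MIR4435 host gene probe NR_024373 fell by 2.44 and by 2.97 in the same test (adjusted p = 0.00339 and 7.13e-05), lower in all pairs of both lines. A second probe of that gene, NR_015395, was at fitted changes of -1.53 and -2.08, also lower in all pairs, and did not pass this test (adjusted p = 1.00 and 0.316). It did pass when replicate pairs were used as a block (adjusted p = 0.0126 and 0.00446).

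Markers of glioblastoma lines were present in both cultures. The means of the control arrays were 7.14 in A172 and 8.77 in U87-MG for VIM, 6.66 and 7.53 for NES, and 2.08 and 2.50 for CD44. FN1 was at -0.36 in A172 and at 5.73 in U87-MG, well above background on all arrays of both. Among markers of other cell types, ALB was well above background on no array and EPCAM on 1 array. Of the 5 probes for PTPRC, a leukocyte marker, the brightest was well above background on all arrays, at -0.72 in A172 and -0.79 in U87-MG. In bulk RNA, fewer cells with a transcript and less of it per cell cannot be told apart.

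The first question was how many TCONS probes gave a signal in the cells at all. A probe was counted as detected, and then tested, in a line when the scanner software marked it as well above background on no fewer than 3 arrays of 1 group, control or siLINC00152. By this measure 2556 TCONS probes (35.6%) were detected in A172 and 1682 (23.4%) in U87-MG. NM_ probes were detected more often, with 17376 (68.3%) in A172 and 14174 (55.7%) in U87-MG. Other noncoding or less curated classes lay in between, with 49.9% and 36.8% of the NR_ probes and 40.8% and 28.2% of the ENST probes. Of the l2 probes 41.1% were detected in A172 and 28.5% in U87-MG, compared with 34.1% and 22.0% of the other TCONS probes. All of these are counts without a test.

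Both lines shared 1601 detected TCONS probes, which were 62.6% of the A172 probes (74.7% among all probes) and 95.2% of the U87-MG probes (96.5% among all probes). The second share was thus near that of the whole array, and the first was below it. A further 955 were detected in A172 and not in U87-MG, and 81 in U87-MG and not in A172. In neither line were 4540 TCONS probes (63.3%) detected, against 29.9% of the NM_ probes. On all 14 arrays 1152 of the 7177 TCONS probes were well above background, and 3103 were so on none of the 14. Among all 50599 probes these counts were 15497 and 13240. The detection counts refer to arrays whose brightness differed, since the 75th percentile signal was 131 to 284 intensity units in A172 and 33.0 to 69.0 in U87-MG. Whether the brightness accounts for the lower counts of U87-MG was not tested.

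On single arrays, the share of TCONS probes well above background had a lowest, median and highest value of 36.2%, 41.6% and 46.4% in A172, and of 21.2%, 24.3% and 27.2% in U87-MG. The A172 arrays were thus all above the U87-MG arrays. The NM_ probes gave 67.4%, 74.0% and 78.7% in A172, and a lowest and median share of 42.9% and 56.2% in U87-MG. The share of NM_ probes was 1.70 to 1.86 times that of TCONS probes on the A172 arrays and 2.02 to 2.50 times on the U87-MG arrays. The dimmest array was control replicate 3 of U87-MG, with the lowest share for TCONS probes (21.2%) as well as for NM_ probes (42.9%). Of the 308 negative control spots, 0 to 2 per array were well above background.

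**Figure D1:**
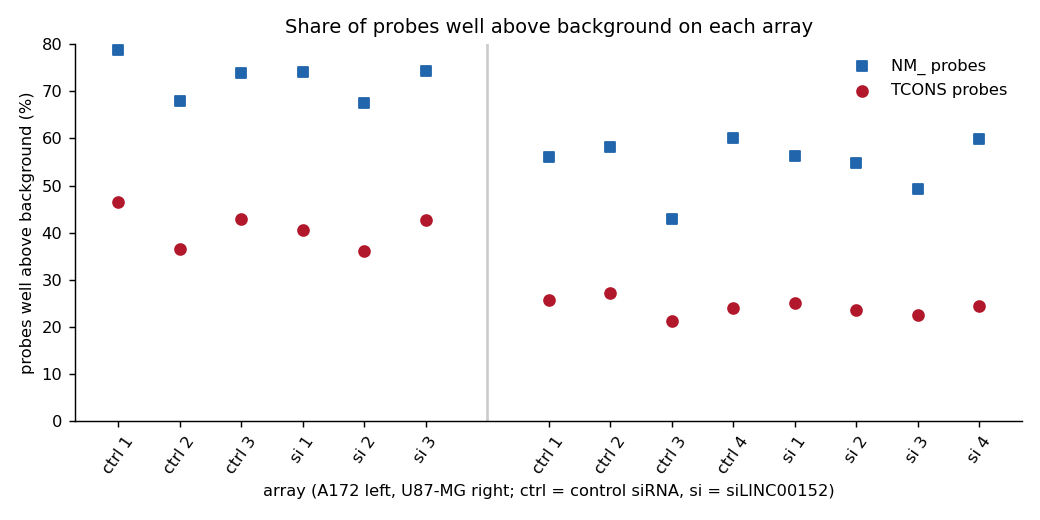
Share of probes well above background (%) on each of the 14 arrays, for TCONS probes and NM_ probes. TCONS probes reached 36.2% to 46.4% on the A172 arrays and 21.2% to 27.2% on the U87-MG arrays, below the NM_ probes on every array.

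Within a line, detection was also compared between the control and the siLINC00152 arrays. In A172, 2451 probes met the limit in the control group and 2326 in the siLINC00152 group, and 2221 met it in both, which was 86.9% of the detected probes, against 91.4% among all probes. In U87-MG the numbers were 1594, 1549 and 1461, the last again 86.9%, against 91.1%. In A172, 7 TCONS probes were well above background on all control arrays and on no knockdown array (0.274% of the detected ones, against 0.155% among all probes), and 1 showed the reverse (0.0391%, against 0.0247%). In U87-MG these counts were 2 (0.119%, against 0.0365%) and 1 (0.0595%, against 0.0319%).

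For probes that were not well above background in a group, a fold change is given as a lower bound. The signal of each array of that group was set to its own value or to the lowest signal that any well above background spot had on that array, whichever was higher. The U87-MG probe for TCONS_00017944 was at least 1.96-fold higher after siLINC00152, the highest bound among the 11 probes that switched. In A172, TCONS_00009876 was at -2.71, -2.52 and -3.08 in the controls and at -3.73, -3.71 and -3.74 after siLINC00152, which makes it at least 1.71-fold lower. TCONS_00009007 in U87-MG was at least 1.46-fold lower. The bounds of the other 8 were between 1.06 and 1.31. The switching probes, apart from TCONS_00017944, were picked after their values had been seen. Each of them was not well above background on any array of 1 group.

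The second comparison was between the signal of TCONS and NM_ probes. The median signal of all TCONS probes on an array was -4.37, -4.04 and -3.78 (lowest, median and highest array) in A172 and -3.54, -3.29 and -2.70 in U87-MG. For NM_ probes the corresponding values were -1.50, -1.37 and -1.28 in A172 and -1.53, -1.45 and -1.35 in U87-MG. The median TCONS probe was below the median NM_ probe on every array. This difference of medians was -2.65 ± 0.293 in A172 (SD, n = 6) and -1.81 ± 0.332 in U87-MG (SD, n = 8), with ranges of -3.09 to -2.31 and -2.18 to -1.17. Negative control spots had medians of -6.49 to -5.29 in A172 and of -4.50 to -3.34 in U87-MG. Signal also depends on how well a probe hybridises, so the classes are compared as probes and not as amounts of RNA.

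The size of this difference depended on which probes were compared and on the background correction. When only detected probes were compared, the difference was -0.97 in A172 and -0.68 in U87-MG. With a model-based background correction (normexp) and quantile normalization the difference over all probes was -0.54 and -0.48. The direction was the same under all these choices, while the size moved by more than 1.5 times. Among detected probes the median over the control arrays was -1.14 for TCONS and -0.16 for NM_ in A172, and -0.24 and 0.38 in U87-MG.

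Some TCONS probes were nevertheless bright. Over the control arrays 774 TCONS probes (10.8%) lay above the 75th percentile in A172 and 769 (10.7%) in U87-MG, against 32.1% of the NM_ probes in both lines. Among the 100 brightest probes there were 4 TCONS and 53 NM_ probes in A172, and 3 and 46 in U87-MG. Among the 1000 brightest there were 67 TCONS probes in A172 and 59 in U87-MG. Across the 1601 TCONS probes detected in both lines, the mean signals of the lines had a Spearman correlation of 0.826, and 0.820 was found across 13731 NM_ probes. These correlations are across probes, which are not independent replicates and which share their hybridisation properties between the lines.

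**Figure D2:**
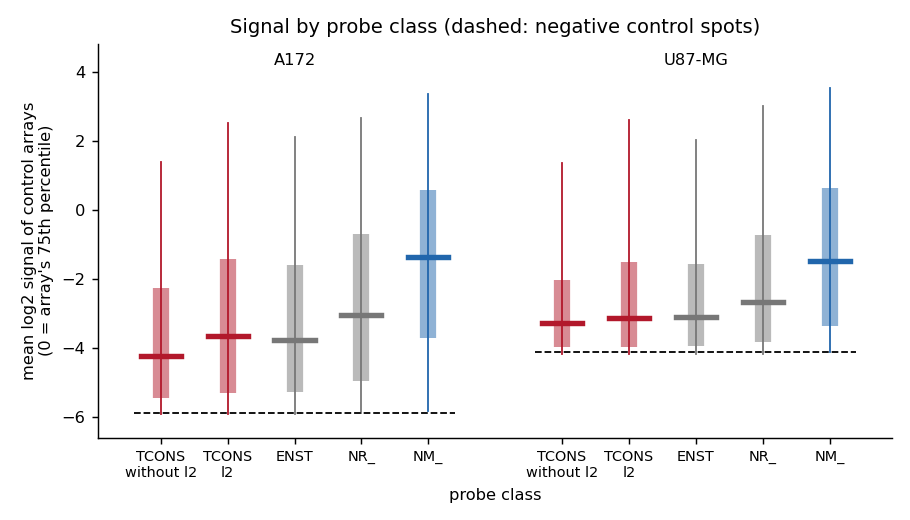
Mean log2 signal over the control arrays by probe class and line, where 0 is the 75th percentile of the array. Thick lines are medians, boxes the middle 50% and thin lines the 5th to 95th percentile of probes, and the dashed lines mark negative control spots; the TCONS probes without l2 have the lowest median in both lines, -4.23 in A172 and -3.29 in U87-MG.

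Among the 6 brightest TCONS probes of each line, 5 were the same. TCONS_l2_00030893 had the highest control mean of all TCONS probes in A172, where it ranked 28 among all probes, with 10.06, 11.00 and 10.48 in the controls and 10.40, 10.72 and 10.47 after siLINC00152. In U87-MG it was at 9.82, 9.71, 10.41 and 9.09 in the controls and at 9.83, 9.65, 9.97 and 9.47 after siLINC00152. TCONS_00025825 led in U87-MG, where it ranked 43, with 10.86, 10.85, 10.50 and 10.01 in the controls and 10.60, 10.61, 9.95 and 9.95 after siLINC00152. The ranges of control and knockdown arrays overlapped for both probes. Within pairs, TCONS_00025825 was lower in 4 of 4 pairs of U87-MG and was not called (limma adjusted p = 0.281 with the block). TCONS_l2_00009476 (ranks 54 in A172 and 72 in U87-MG), TCONS_00014179 (97 and 136) and TCONS_00005950 (144 and 140) also belonged to the 6 brightest TCONS probes of each line. The remaining place went to TCONS_00028091 in A172 (rank 156) and to TCONS_00018312 in U87-MG (rank 160). TCONS_00018312 was at 7.87 to 8.75 on the U87-MG arrays and at 5.05 to 6.39 on the A172 arrays. None of these 7 probes was called changed by siLINC00152 in either line, and their fitted log2 changes were between -0.27 and 0.16.

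Probes of 1 line were also found. In A172, 323 TCONS probes were well above background on all arrays and on no U87-MG array (4.50%, against 5.05% of all probes), and 1 probe showed the reverse (0.0139%, against 0.126%). The brightest of the A172 probes was TCONS_00010540, with 0.44, 1.89 and 1.57 in the controls and 0.37, 1.86 and 1.64 after siLINC00152. Its mean over the A172 arrays was at least 9.48-fold above its signal in U87-MG. TCONS_l2_00001143 was at -1.62, 1.76 and 1.63 in the controls and at -1.86, 1.75 and 1.76 after siLINC00152. Its mean over the A172 arrays was at least 5.74-fold above U87-MG. The second probe of this transcript was likewise well above background on all A172 arrays and on none of U87-MG, with a control mean of -2.99 in A172. TCONS_00001757 was at -2.16, 1.50 and 1.90 in the controls and at -2.36, 1.57 and 1.80 after siLINC00152. Its mean over the A172 arrays was at least 5.00-fold above U87-MG. The lowest well above background signals of the U87-MG arrays had a mean of -1.95. Replicate pair 1 was near this value for TCONS_l2_00001143 and below it for TCONS_00001757, so neither bound holds for that pair. All 3 probes were lowest in both samples of replicate pair 1, and the gap was largest for the last of them. The pair samples share a slide, and whether the slide or the culture goes with the gap cannot be told apart. The single U87-MG probe, TCONS_00017188, was at -1.32, -1.42, -0.87 and -1.50 in the controls and at -1.28, -1.08, -0.97 and -1.44 after siLINC00152, at least 5.24-fold above A172. As line and slide coincide, these values describe the arrays and were not tested as differences between cell lines.

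Several probes for 1 transcript did not always give the same picture. There were 109 TCONS transcripts with more than 1 probe, 232 probes in all. In A172 all probes were detected for 38 of these transcripts, none for 39, and only some for 32. With undetected probes included, the A172 control means of the probes of 1 transcript differed by a median of 1.57 on the log2 scale. The widest gap was 12.4, for TCONS_l2_00026611, of whose 3 probes 1 was detected. Neither value is an exact size, since many of these probes were not detected and probes differ in how well they hybridise. TCONS_00016491, singled out for its 8 probes, was the transcript with the most. The means of its probes over the A172 controls ran from -2.69 to 2.41, and from -2.15 to 2.64 over the U87-MG controls. All 8 probes were detected in both lines, and none was called changed.

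The named lncRNAs among the detected members were present to different degrees. LINC-ADAIN (TCONS_00015639), whose promoter is shown above, was well above background on all 14 arrays, at 1.72, 3.36 and 3.12 in the A172 controls and 1.37, 3.30 and 3.16 after siLINC00152. In U87-MG its signals were 1.86, 2.11, 2.29 and 1.27 in the controls and 2.32, 1.89, 2.01 and 1.50 after siLINC00152. Replicate 1 of A172 was the low pair, and control and knockdown values overlapped in both lines. IATPR (TCONS_00018476) was well above background on all A172 arrays, at -0.93, -0.17 and -0.10 in the controls and -1.14, -0.32 and 0.02 after siLINC00152. In U87-MG it was so on 2 arrays, both after siLINC00152. LINC01152 (TCONS_00025128) was well above background on 5 arrays of A172 and on none of U87-MG. It was at -2.70, -1.0 and -1.90 in the A172 controls and at -4.29, -1.38 and -1.41 after siLINC00152. Of these, knockdown replicate 1 was not well above background. None of the 3 was called changed, and all were looked up after the signals had been read.

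The third comparison was the change after siLINC00152 in each line. A probe was called when limma gave a Benjamini-Hochberg adjusted p under 0.2 over all tested probes of the line, together with a log2 change of more than 0.5 in either direction. In the model of group means, which does not use the pairs, 1 of 2556 tested TCONS probes was called in A172 and 1 of 1682 in U87-MG. Over all tested probes the share of calls was 0.184% in A172 and 0.0502% in U87-MG. The single TCONS probe was TCONS_l2_00012321 in both lines. It is not in the list that the paper gives for U87-MG at the same thresholds. That list, made with the authors' own normalization and filter, holds other TCONS probes. None of those was called in U87-MG here, with or without the replicate pairs as a block. Before adjustment, p was under 0.05 for 19 TCONS probes (0.743%) in A172 and 30 (1.78%) in U87-MG, against 2.28% and 2.30% of all tested probes.

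TCONS_l2_00012321 was at 2.95, 3.35 and 3.11 in the A172 controls and at 1.61, 1.61 and 1.1 after siLINC00152. In U87-MG its signals were 4.87, 4.88, 4.85 and 5.38 in the controls and 3.74, 3.80, 3.66 and 4.00 after siLINC00152. The groups did not overlap in either line. TCONS_l2_00012321 fell by 1.70 in A172 (SE 0.250, n = 3, limma adjusted p = 0.0160), which left 30.9% of the control signal, and was lower in 3 of 3 pairs. In U87-MG it fell by 1.19 (SE 0.217, n = 4, limma adjusted p = 0.159), which left 43.7%, and was lower in 4 of 4 pairs. The changes of the pairs were -1.33, -1.75 and -2.01 in A172, and -1.13, -1.08, -1.19 and -1.38 in U87-MG. With the replicate pair as a block in limma the adjusted p was 0.00614 in A172 and 0.0150 in U87-MG.

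The call of TCONS_l2_00012321 without the block depended on the arrays that share the estimate of spread. When each line was fitted by itself, the adjusted p was 0.237 in A172 and 0.291 in U87-MG, above the limit. With the percentile taken over probes well above background on all arrays it was 0.205 in U87-MG. The U87-MG call was also lost with a filter of 1 array, without a filter and at an FDR of 0.05. Leaving out single arrays or pairs kept the call in 19 of 21 fits for A172 (adjusted p 0.0108 to 0.566; not without pair 2, at 0.218, or pair 3, at 0.566) and in 5 of 21 fits for U87-MG (0.145 to 1.00). The fitted change was -1.88 to -1.53 in these fits for A172 and -1.26 to -1.07 for U87-MG. The difference between its changes in the lines was -0.50 and did not pass the interaction test (limma adjusted p = 0.567 with the block).

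Samples of 1 replicate number were correlated in the detected probes, at 0.675 to 0.794 between paired A172 samples and 0.373 to 0.864 between paired U87-MG samples after the group means had been removed. Between samples of different numbers the correlations were -0.701 to -0.0436 and -0.772 to 0.411. Among TCONS probes they were 0.657 to 0.708 and 0.271 to 0.783 for the same number, and -0.629 to 0.00116 and -0.587 to 0.327 for different numbers. In U87-MG the ranges overlapped, so the numbers set the pairs apart less clearly than in A172. The fit with the replicate pair as a block is given as a count of its own, chosen after the data had been seen. It compares each siLINC00152 sample with the control of its own pair. With this block the median SE of a TCONS probe was 0.214 in A172 and 0.156 in U87-MG, compared with 0.172 and 0.138 for NM_ probes. The model of group means leaves the pairs out, and its median SE of a TCONS probe was 0.422 in A172 and 0.342 in U87-MG.

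With the block, 17 TCONS probes were called in A172. Of these, 15 were lower (0.587%, against 2.17% of all tested probes) and 2 higher (0.0782%, against 1.09%). In U87-MG 49 TCONS probes were called, 34 lower (2.02%, against 2.07% of all tested probes) and 15 higher (0.892%, against 2.12%). The lower share in U87-MG was near that of all probes, and the other 3 shares were below it. For NM_ probes the shares in both directions together were 4.57% in A172 and 4.74% in U87-MG. All 17 A172 probes and 45 of the 49 U87-MG probes changed in 1 direction in all pairs. The l2 probes made up 6 of the 17 and 20 of the 49, which was 0.951% of the tested l2 probes in A172 (3.26% over all tested probes) and 4.57% in U87-MG (4.19% over all). Except for TCONS_l2_00012321, all these calls were absent without the block.

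These counts moved with single pairs, the filter, the threshold, the arrays in the fit and the background correction. The calls over all probes were not counted under these settings. Whether the TCONS counts moved with those of the whole array was therefore not tested. Without a filter the counts were 34 for A172 and 30 for U87-MG, with each line fitted by itself 38 and 30, and at an FDR of 0.05 there were 5 and 8. The filter was met in 1 group only by 6 of the 17 and 19 of the 49 probes, and 11 of the 17 and 9 of the 49 kept an adjusted p under 0.2 without it. For A172 the count with the block was 7, 5 and 4 without A172 pair 1, 2 and 3, and 27 without U87-MG pair 3. For U87-MG it was 24 and 23 without A172 pair 2 and 3, and 21, 18 and 19 without U87-MG pair 1, 2 and 4. With normexp and quantile normalization 5 TCONS probes were called in each line, 4 lower and 1 higher in A172 and 2 lower and 3 higher in U87-MG.

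With the block, 3 TCONS probes were called in both lines, all of them lower after siLINC00152. This was 17.6% of the A172 calls and 6.12% of the U87-MG calls, against 18.6% and 18.7% when the calls of all probes were counted. Besides TCONS_l2_00012321 these were TCONS_l2_00014793 and TCONS_l2_00014795, whose catalogue numbers are close to each other. TCONS_l2_00014793 was at 2.13, 0.55 and 2.01 in the A172 controls and at 1.13, -0.41 and 1.36 after siLINC00152. In U87-MG it was at -0.18, -0.10, 0.51 and 0.86 in the controls and at -1.60, -1.66, -0.31 and -0.24 after siLINC00152. The A172 groups overlapped because pair 2 was low in both samples, whereas all U87-MG knockdown arrays were below all controls. TCONS_l2_00014793 fell by 0.87 in A172 (SE 0.167, limma adjusted p = 0.0706, 3 of 3 pairs) and by 1.22 in U87-MG (SE 0.145, limma adjusted p = 0.0192, 4 of 4 pairs).

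TCONS_l2_00014795 was at 0.28, -1.05 and -0.06 in the A172 controls and at -0.72, -1.52 and -0.73 after siLINC00152. In U87-MG it was at -1.21, -1.17, -0.42 and -0.58 in the controls and at -2.16, -2.20, -1.33 and -1.53 after siLINC00152, where replicates 1 and 2 were no longer well above background. Again the A172 groups overlapped through pair 2, and the U87-MG groups did not overlap. TCONS_l2_00014795 fell by 0.71 in A172 (SE 0.131, limma adjusted p = 0.0612) and by 0.96 in U87-MG (SE 0.113, limma adjusted p = 0.0191), lower in all pairs of both lines. In U87-MG it met the filter through the controls alone, and the adjusted p without a filter was 0.101. The pairs of U87-MG gave -0.95, -1.03, -0.91 and -0.95.

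**Figure D3:**
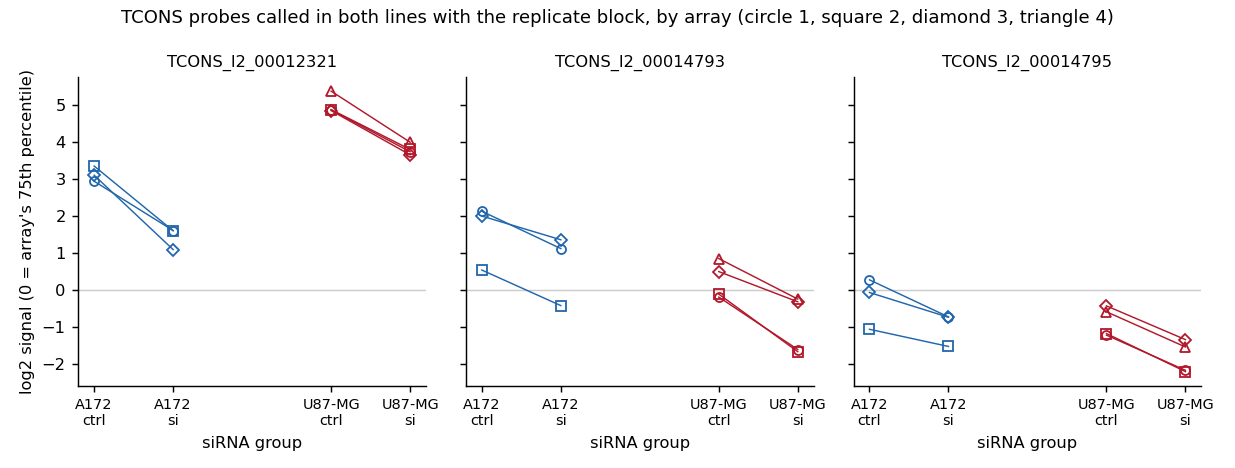
Log2 signal on each array (0 is the 75th percentile of the array) of the 3 TCONS probes called in both lines with the replicate block, for control (ctrl) and siLINC00152 (si) groups, with symbols for replicate numbers. For TCONS_l2_00012321 the control arrays lie at 2.95 to 3.35 in A172 and 4.85 to 5.38 in U87-MG, above all siLINC00152 arrays of the line.

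Of the 17 probes called in A172 with the block, 9 were tested in U87-MG and 4 of these had a change of the same sign there (44.4%, against 78.1% for the calls of all probes). Of the 49 called in U87-MG, 46 were tested in A172 and 28 of these had the same sign (60.9%, against 72.3%). No test was made of these shares. The called probes that did not reach the threshold in the other line are not thereby shown to differ between the lines. That difference was tested by the interaction of siRNA and line.

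Without the block limma called 0 of 1601 TCONS probes for a different effect in the lines (0.00945% of all probes tested in both). The unadjusted limma p was under 0.05 for 6 of the TCONS probes (0.375%, against 0.784% of all probes). With the block limma called 4 TCONS probes (0.250%, against 0.421% of all probes). These were TCONS_00001843, TCONS_00017944, TCONS_l2_00002953 and TCONS_00014004, and the count was 0 without any 1 of A172 pairs 1, 2 and 3 or of U87-MG pairs 1 and 2. Without U87-MG pair 4, 1 TCONS probe was called. In all 4 the fitted change in A172 was more negative than that in U87-MG, as it was in 81 of the 89 calls over all probes. Without a filter the count was 0, as it was at an FDR of 0.05, and it was 2 with quantile normalization and 2 with the deposited log2 values.

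TCONS_00001843 was at -1.61, -0.04 and -0.30 in the A172 controls and at -3.12, -1.59 and -1.70 after siLINC00152. The U87-MG signals were 0.93, 0.90, 0.71 and 1.15 in the controls and 0.99, 0.84, 1.05 and 0.83 after siLINC00152. Each A172 knockdown sample was below its own control, while the U87-MG groups overlapped fully. TCONS_00001843 fell by 1.49 in A172 (block SE 0.143, limma adjusted p = 0.00695), and its change in U87-MG was 0.01. The A172 change minus the U87-MG change was -1.50 (SE 0.190, limma adjusted p = 0.0861, but 0.209 without a filter).

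TCONS_l2_00002953 was at -2.61, -1.57 and -0.66 in the A172 controls and at -3.37, -3.0 and -2.63 after siLINC00152, where replicate 2 was not well above background. In U87-MG it was at 0.90, 0.80, 0.95 and 0.84 in the controls and at 1.15, 0.94, 1.69 and 1.13 after siLINC00152. In A172 every knockdown sample was below all 3 controls, and in U87-MG all knockdown samples except replicate 2 were above all controls. It fell by 1.39 in A172 (block SE 0.224, limma adjusted p = 0.0371), and the change of 0.35 in U87-MG did not pass (adjusted p = 0.390). The difference of the changes was -1.75 (SE 0.297, limma adjusted p = 0.151). The probe met the A172 filter through the controls alone. Without a filter the adjusted p was 0.0949 for the fall and 0.282, above the limit, for the difference.

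The U87-MG probe for TCONS_00017944 was well above background in none of the controls, at -2.09, -2.40, -1.16 and -2.79, and in all 4 knockdown samples, at -1.19, -1.05, 0.14 and -1.66. In A172 it was at -1.45, -0.90 and -0.74 in the controls and at -1.51, -0.94 and -0.84 after siLINC00152. Replicate 3 of U87-MG was the highest in both groups, and each knockdown sample was above its own control. Its signal in U87-MG was at least 1.96-fold higher after siLINC00152, and this bound is what the values support. The probe entered the U87-MG test through the knockdown group alone, so a limma fit with the block and no filter was added after the values had been seen. There the adjusted p was 0.0517 in U87-MG, so that call held, and 0.215 for a different effect, so that call was lost.

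TCONS_00014004 was at -0.90, -1.24, -1.32 and -1.44 in the U87-MG controls, of which replicate 3 was not well above background, and at -0.13, -0.26, -0.59 and -0.39 after siLINC00152. In A172 it was at -0.99, -0.06 and -0.16 in the controls and at -1.20, 0.14 and -0.26 after siLINC00152. The U87-MG knockdown arrays were all above the controls, and the A172 groups overlapped. It rose by 0.88 in U87-MG (block SE 0.115, limma adjusted p = 0.0276), with a difference of changes of -0.92 (limma adjusted p = 0.199, but 0.388 without a filter). The second probe of this transcript was brighter, with control means of 2.10 in A172 and 3.78 in U87-MG, and was not called. The fit gave it 0.03 in A172 and -0.11 in U87-MG (limma adjusted p = 0.703 with the block), so the rise was not shared by both probes.

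**Figure D4:**
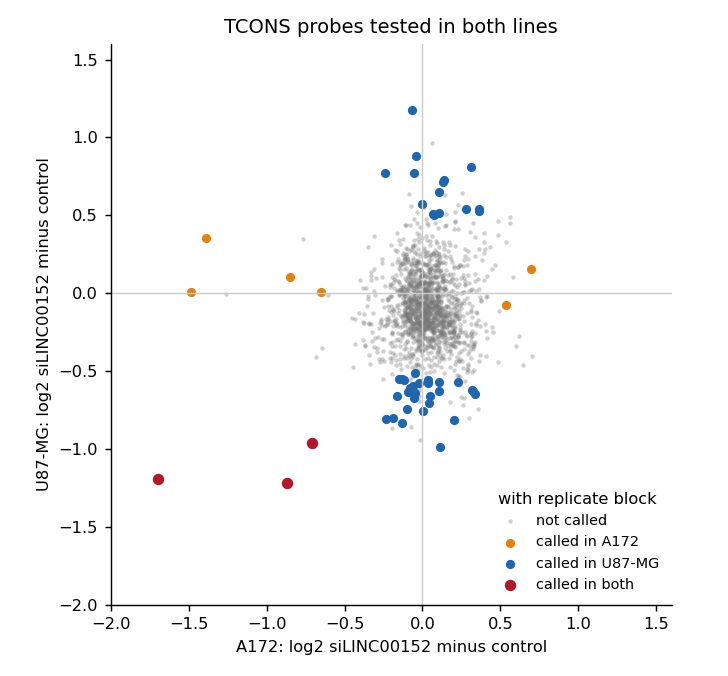
Log2 change after siLINC00152 in A172 (horizontal) and in U87-MG (vertical) for the 1601 TCONS probes tested in both lines, coloured by the calls with the replicate block. The 3 probes called in both lines lie in the lower left, TCONS_l2_00012321 at -1.70 and -1.19.

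The other large falls of A172 with the block were in probes of low signal in U87-MG. TCONS_00002016 was at -0.83, -2.74 and -1.51 in the controls and at -2.53, -4.50 and -2.88 after siLINC00152, with knockdown replicate 2 not well above background. TCONS_00008342 was at -0.39, -2.11 and -0.68 in the controls and at -1.89, -3.29 and -2.40 after siLINC00152, again with replicate 2 not well above background. In both probes pair 2 held the lowest sample of each group, and the groups overlapped through its control. TCONS_00002016 fell by 1.61 (SE 0.162, limma adjusted p = 0.00701) and TCONS_00008342 fell by 1.47 (SE 0.291, limma adjusted p = 0.0765), both lower in 3 of 3 pairs. Both probes met the filter through the controls alone, and without a filter the adjusted p was 0.0307 and 0.166. Neither was well above background on any U87-MG array, so that no change could be measured there.

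Among the named falls of A172, TCONS_00014248 had the pair values closest to each other. It was at -0.69, -0.96 and -1.12 in the controls and at -2.0, -2.27 and -2.44 after siLINC00152. All knockdown arrays were below all controls, and the pairs gave -1.31, -1.31 and -1.32. TCONS_00014248 fell by 1.31 (SE 0.171, limma adjusted p = 0.0157), and in U87-MG it was well above background on 1 array. The only transcript called higher in A172 with the block was TCONS_00006381, by both of its probes. The first probe was at 1.82, 0.83 and 1.98 in the controls and at 2.33, 1.37 and 2.53 after siLINC00152. The other was at 1.74, 0.35 and 1.70 in the controls and at 2.20, 1.23 and 2.45 after siLINC00152. In each pair the knockdown sample was above its control for both probes, although the groups overlapped because pair 2 was low. TCONS_00006381 rose by 0.54 (SE 0.126, limma adjusted p = 0.128) and by 0.70 (SE 0.171, limma adjusted p = 0.147), and both calls were lost without a filter (adjusted p = 0.308 and 0.298).

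In U87-MG, TCONS_00023847 was at 0.40, -0.07, 0.84 and -0.23 in the controls and at -0.65, -0.78, 0.13 and -1.10 after siLINC00152. TCONS_00022455 was at -1.47, -1.07, -0.91 and -1.60 in the controls and at -2.65, -1.51, -2.50 and -2.35 after siLINC00152, of which only replicate 2 was well above background. TCONS_00025402 was at -0.85, -1.09, -0.69 and -1.71 in the controls and at -1.80, -1.81, -1.89 and -2.10 after siLINC00152, where replicates 2 and 3 were not well above background. Every knockdown sample was below its own control, and the groups overlapped for TCONS_00023847 and TCONS_00022455 but not for TCONS_00025402. TCONS_00023847 fell by 0.83 (SE 0.112, limma adjusted p = 0.0293), TCONS_00022455, measured on 1 of 4 knockdown arrays, by a fitted 0.99 (SE 0.229, limma adjusted p = 0.113, but 0.256 without a filter) and TCONS_00025402 fell by 0.82 (SE 0.144, limma adjusted p = 0.0653, and 0.192 without a filter). The last 2 met the filter through the controls alone. Their changes in A172 were -0.13, 0.11 and 0.20 and did not pass the test.

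Of the 15 probes called higher in U87-MG with the block, the 4 with the next largest fitted rises are given here. TCONS_l2_00001553 was at -0.89, -1.19, -0.38 and -0.83 in the controls and at -0.09, -0.41, 0.40 and -0.10 after siLINC00152. TCONS_l2_00030552 was at -1.06, -1.34, -1.96 (not well above background) and -0.29 in the controls and at -0.47, -0.26, -1.01 and 0.33 after siLINC00152. TCONS_l2_00001619, the brightest of them, was at 3.89, 3.90, 2.15 and 2.62 in the controls and at 4.19, 4.39, 2.92 and 3.97 after siLINC00152. The groups overlapped for all 3, and each knockdown sample was above its own control. The fitted rises were 0.77 (SE 0.182, limma adjusted p = 0.118), 0.81 (SE 0.153, limma adjusted p = 0.0725) and 0.73 (SE 0.170, limma adjusted p = 0.116) in this order. TCONS_00024719 was not well above background in any control and was at least 1.05-fold higher after siLINC00152, hardly a difference, and like TCONS_00017944 it met the filter through the knockdown group alone. Without a filter none of these 4 kept the call (limma adjusted p with the block 0.277, 0.207, 0.277 and 0.322).

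**Figure D5:**
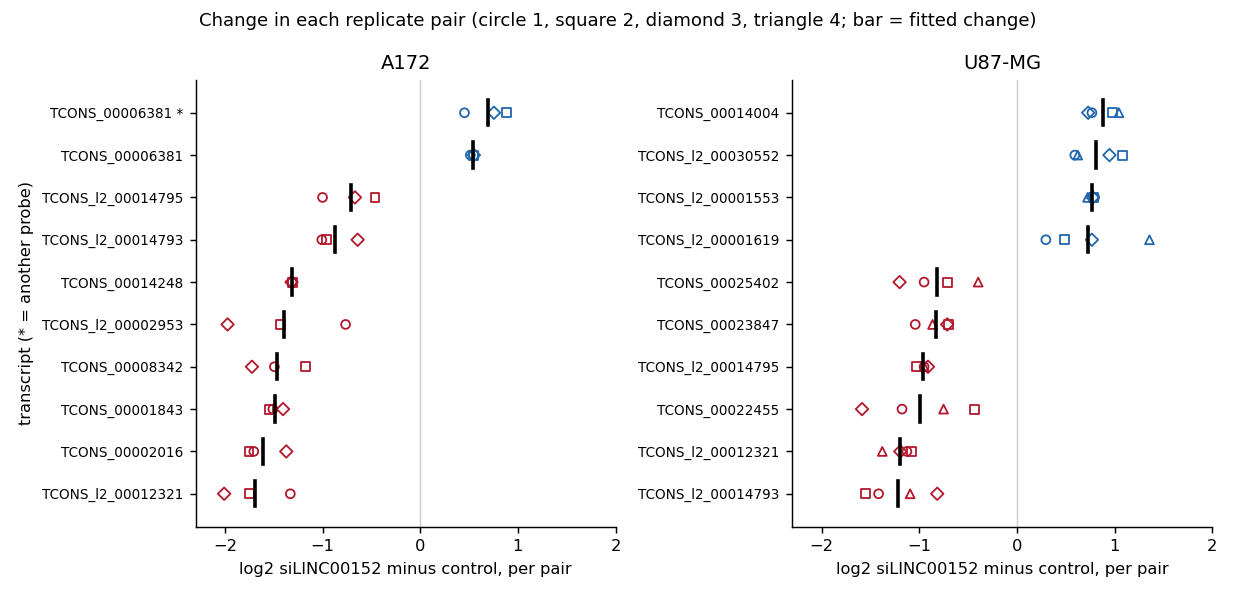
Log2 change after siLINC00152 in each replicate pair for the named TCONS probes called with the replicate block and measured in both groups, A172 on the left and U87-MG on the right; symbols are pairs and bars the fitted change. All pairs of a probe lie on 1 side of 0, which the naming rule required of the largest falls and rises. The pair values run from -2.01 for TCONS_l2_00012321 in A172 to 1.36 for TCONS_l2_00001619 in U87-MG.

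Counted by pairs alone, without a test, 276 TCONS probes (10.8%) were lower in all 3 pairs of A172 and 296 (11.6%) were higher. Over all tested probes 16.9% were lower and 19.4% higher in all A172 pairs. In U87-MG 265 TCONS probes (15.8%) were lower in all 4 pairs and 96 (5.71%) were higher, whereas 13.9% and 16.6% of all tested probes were. The U87-MG share of lower probes was thus near the background, and the share of higher probes was below it. For NM_ probes of U87-MG the shares were 12.6% and 21.6%.

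The typical TCONS probe changed little in A172, with a median log2 change of 0.01 over the 2556 tested probes, compared with 0.02 over all tested probes. In U87-MG the median over 1682 TCONS probes was -0.11, compared with -0.02 over all tested probes and 0.03 over NM_ probes. The change was negative for 67.8% of the tested TCONS probes in U87-MG and for 52.6% of all tested probes. ENST probes had a median of -0.11 and NR_ probes of -0.08, so the lower median was not particular to TCONS probes. Among them the l2 probes had a median of -0.05 and the others of -0.13. Divided by signal, the median of TCONS probes in U87-MG was -0.18 below a log2 signal of -2 (n = 28), -0.10 between -2 and 0 (n = 904), -0.13 between 0 and 2 (n = 470) and -0.10 above 2 (n = 280). The absolute change had a median of 0.11 for TCONS and 0.16 for NM_ probes in A172, and of 0.18 and 0.17 in U87-MG.

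The negative median of U87-MG depended on single arrays. The median change of TCONS probes was -0.03, -0.01, -0.36 and -0.01 in pairs 1 to 4, and that of NM_ probes was 0.02, 0.02, 0.09 and 0.02. Pair 3 stood apart from the other pairs for the TCONS probes. Its control was the dimmest array, with a 75th percentile signal of 33.0 intensity units, and its siLINC00152 array was the next, with 42.6. Without control replicate 3 the median over TCONS probes was 0.06, and without siLINC00152 replicate 4 it was 0.02, so that its sign turned in both cases. Without both arrays of pair 3 it was -0.02. In A172 the pairs gave medians of 0.07, -0.02 and -0.02, and leaving out single arrays moved the median to between -0.19 (without control replicate 1) and 0.19 (without control replicate 2). The part of array brightness in these medians was not tested beyond these values.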

How the data were processed

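Per the file headers, the authors scanned 1-colour (Cy3) Agilent arrays with Agilent Feature Extraction 11.5.1.1, which gave processed signals as intensity after background subtraction. The deposited marks for spots well above background are of the kind other (0 or 1 per spot). The authors also deposited log2 values normalized between arrays, used as an alternative only. Here log2 processed signals were taken minus the 75th percentile of the 58717 non-control spots of each array, spots with an outlier mark were left out, and spots of a probe were averaged. A probe was well above background on an array when at least 0.5 of its spots were. Tests were run with R 4.3.3 and limma 3.58.1 in 1 model of 4 group means over all 14 arrays, with Benjamini-Hochberg adjustment over all tested probes of a line; the replicate block entered as a fixed term. The procedure was also run on simulated data. Named were TCONS probes called without the block; with the block and changed in 1 direction in all pairs, up to the 6 largest falls and rises per line; called in both lines; called for a different effect; the 6 brightest per line; and the 3 brightest found in 1 line only. Probes near the LINC00152 locus could not be looked up, since the files give no coordinates for TCONS probes. The counts with the block, their alternatives and the names outside this rule were chosen after the values had been seen. The members and lists were chosen with earlier results of these data known. Alternatives were other scalings and background corrections, other filters, lines fitted apart, a random block, a stricter threshold and left-out arrays or pairs.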

Additional observations from a re-analysis of the deposited data

Results flagged for a closer look

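In the U87-MG controls, TCONS_l2_00012321 had 1 sample far from the others: replicate 4 was at 5.38, while the other 3 were at 4.85 to 4.88. This was 1 of 61 groups of samples looked at, and chance alone sets apart about 1 in 20. For 4 TCONS probes the interaction test of limma with the replicate block gave a different change in the lines, the A172 change minus the U87-MG change being -1.50 for TCONS_00001843, -1.75 for TCONS_l2_00002953 and -0.92 for TCONS_00014004. The fourth, TCONS_00017944, had a fitted difference of -1.24, which is no exact size, as the probe was not well above background in any U87-MG control. Without the block none of these differences passed, and none did with the block and no filter.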

How the results depend on the processing

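Of 638 values of the 22 fitted changes of named probes under the alternatives, 574 kept direction and side of the threshold, 21 kept the direction and lost the call, 43 kept it and gained a call, and 0 reversed. Among these changes only those of TCONS_l2_00012321 were called without the block. For the others, keeping the side meant staying uncalled, which says little about how stable they were. All 21 lost calls were of TCONS_l2_00012321, 3 of its 29 values in A172 and 18 of 29 in U87-MG. The counts of called probes moved too. The 1 call in A172 became 2 without a filter, 0 with each line fitted by itself, 17 with the replicate block, 33 with a random block and 0 to 3 with arrays or pairs left out. The 1 call in U87-MG became 0 with the percentile over probes well above background on all arrays, 0 with a filter of 1 array, 0 without a filter, 0 with the line by itself, 0 at an FDR of 0.05, 49 with the replicate block, 67 with a random block and 0 to 1 with arrays or pairs left out. The 0 different effects in limma (6 at an unadjusted p under 0.05) became 4 with the replicate block and 8 with a random block. The 17 block calls of A172 became 5 with normexp and quantile normalization, 34 without a filter, 38 with the line by itself, 5 at an FDR of 0.05 and 4 to 27 with pairs left out. The 49 block calls of U87-MG became 5, 30, 30 and 8 in the same order and 18 to 36 with pairs left out. The 4 different effects with the block became 2 with quantile normalization, 2 with the authors' log2 values, 0 without a filter, 0 at an FDR of 0.05 and 0 to 3 with pairs left out. The median signal difference of TCONS and NM_ probes moved to -0.54 in A172 and -0.48 in U87-MG with normexp, and to -0.97 and -0.68 among detected probes. With a filter of 1 array, 2588 TCONS probes counted as detected in U87-MG. The median change was -0.19 to 0.19 in A172 and -0.26 to 0.06 in U87-MG (0.0644 without U87-MG control replicate 3) with arrays or pairs left out. Apart from the replicate block, the calls over all probes were not counted under these alternatives. The counts of TCONS calls therefore stand without the share of the whole array. Fewer or other probes and samples entered several of these fits, and beyond that the cause was not tested. Signal over background limits what can be read: 63.3% of the TCONS probes were detected in neither line.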
